A study of Mus musculus with 7 samples.

Results

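The ovarian stroma around birth was described as the collagen-rich cells of the E18.5 and P1 ovary libraries. A cell was taken as stroma if it had at least 1000 detected genes and at least 10 unique molecular identifiers (UMIs, each counting 1 captured RNA molecule) of Col1a1, Col1a2 and Col3a1 together. It also had to have no UMI of Wnt6 (supporting cells) or of Cdh5 and Pecam1 (endothelial cells), at most 1 of Upk3b (surface epithelium), at most 1 of Rgs5 (mural cells of vessels) and at most 2 of Dazl and Ddx4 together (germ cells). These measured values chose the members, so the levels of those genes are descriptions only. The rule found 745 cells at E18.5, 21.9% (20.5 to 23.3) of the 3399 cells with at least 1000 genes, and 1628 cells at P1, 32.6% (31.3 to 33.9) of 4997. Together they were 2373 of the 10527 called cells of both libraries and of 52542 in the 7 libraries of the series.

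The study followed ovary development from E11.5 to P5 by single-cell RNA sequencing, with 1 library per age. Both libraries came from untreated wild-type (WT) mice of the C57BL/6J background, and the ovaries were dissociated in trypsin for 60 min at E18.5 (prenatal) and 80 min at P1 (postnatal). Differences between the ages can therefore not be told apart from differences between libraries or dissociation times. The E18.5 library held 32566406 UMIs in 4118 called cells and the P1 library 52076402 UMIs in 6409.

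Stromal fibroblasts fill the space between germ cell cysts, follicles and vessels, and secrete fibrillar collagens, small proteoglycans and microfibril proteins that give the ovary its mechanical frame. Small leucine-rich proteoglycans such as decorin and lumican bind collagen fibrils and shape their assembly. The stroma is also a source of the steroid-producing theca cells that are recruited around follicles once these begin to grow, under hedgehog and other signals from the follicle.

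The 2 sets of stroma cells had like depths, with a median of 6408 UMIs and 2283 genes per cell at E18.5 and of 6816 UMIs and 2285 genes at P1. Median mitochondrial shares were 3.32% and 3.28% of UMIs. The libraries shared 35 cell barcodes, of which 1 was a member in both, and the doublet caller Scrublet marked 9 members at E18.5 and 25 at P1, which were kept. Summed over members, 5020717 UMIs were available at E18.5 and 11980942 at P1. Levels are UMIs of a gene over all members per 1000000 UMIs of those members (CPM), and parentheses hold the 95% exact Poisson interval. A ratio of 2 levels has an exact interval conditional on the summed counts. With 1 library per age there was no replicate and no test, cells were not treated as replicates, and all intervals cover counting error only. The libraries are 3′ tag counts, which do not scale with transcript length, and levels of different genes were set side by side only to name the most abundant genes of a list.

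Of 954 cells with at least 10 collagen UMIs at E18.5, 144 were left out for a Wnt6 UMI, 48 for an endothelial gene, 30 for Rgs5, 7 for germ cell genes and 3 for Upk3b, some for more than 1. Of 1885 such cells at P1, 192 had a Wnt6 UMI, 35 an endothelial gene, 23 Upk3b, 17 Rgs5 and 9 germ cell genes above the limits. The collagen threshold fell in a sparse stretch at E18.5, where 13 cells with 8 or 9 collagen UMIs lay just outside and 19 cells with 10 or 11 just inside, against 42 and 61 at P1. Dcn was at 299 CPM in the cells just outside and 293 CPM in those just inside at E18.5, and at 902 and 897 CPM at P1. In cells with 0 to 2 collagen UMIs Dcn was at 4.33 CPM at E18.5 and 16.2 CPM at P1. Other genes differed across the threshold. Mfap4 was at 110 CPM outside and 401 CPM inside at E18.5, Kitl, the stem cell factor gene of supporting cells, at 284 and 97.6 CPM, and Foxl2 at 173 and 108 CPM. At P1 Mfap4 was at 568 and 599 CPM, Foxl2 at 93.2 and 84.4 CPM and Kitl at 110 and 29.0 CPM. Cells on both sides thus carried similar Dcn, well above the collagen-poor cells, while Kitl was higher just outside the limit at both ages.

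The label of stroma was checked on Dcn, Mgp and Mfap4, which the rule did not use. Dcn encodes decorin (chr10:97479609-97518143, plus strand, GRCm38), Mgp the calcification inhibitor matrix Gla protein (chr6:136872435-136875823, minus strand), and Mfap4 a microfibril-associated protein of elastic fibres (chr11:61485431-61488900, plus strand). Dcn was at 864 CPM (838 to 889.7) in E18.5 stroma and 1504 CPM (1482 to 1526) in P1 stroma. In supporting cells, defined here by at least 1 Wnt6 UMI (1376 and 1404 cells), Dcn was at 61.7 and 246 CPM, and in endothelial cells (50 and 43 cells) at 45.2 and 28.4 CPM. Stroma stood above both classes at both ages. Mural cells with at least 2 Rgs5 UMIs (33 and 71 cells) were nearer, at 734 and 253 CPM of Dcn, and 78.8% of them at E18.5 had at least 10 collagen UMIs, against 22.5% at P1. Mgp was at 1163 CPM in E18.5 stroma and 1814 CPM in P1 stroma, and mural cells held 1937 and 1265 CPM. Mfap4 was at 982 and 858 CPM in stroma, and at 69.4 and 103 CPM in supporting cells. The label thus held against supporting and endothelial cells. Mgp did not separate stroma from mural cells, and at E18.5 Dcn in mural cells lay near its level in stroma.

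**Figure D1:**
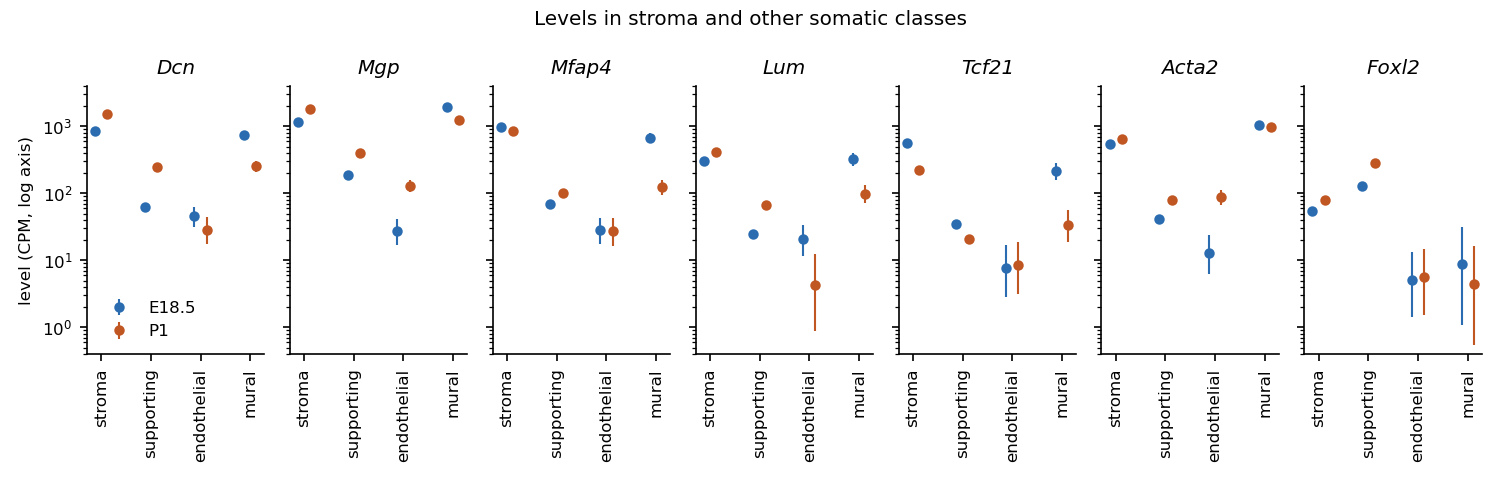
Levels in CPM (log axis, 95% exact Poisson intervals for counting error, 1 library per age) of Dcn, Mgp, Mfap4, Lum, Tcf21, Acta2 and Foxl2 in stroma, supporting, endothelial and mural cells at E18.5 (blue) and P1 (orange). Dcn in stroma stood at 864 and 1504 CPM, above supporting cells at 61.7 and 246, whereas Foxl2 was higher in supporting cells, at 128 and 285 CPM against 55.4 and 80.6 in stroma.

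The share of cells with a UMI was read after thinning each cell to 2000 UMIs, which left out 3 and 2 stroma cells. Dcn was then found in 70.4% (66.9 to 73.6) of E18.5 and 85.3% (83.5 to 87.0) of P1 stroma cells, where 89.8% and 97.2% had it before thinning. The background from free RNA was read in endothelial cells, a type that should lack Dcn, where the thinned share was 4% and 9.52% (14.0% and 23.3% before thinning, at median depths of 12377 and 13172 UMIs). In supporting cells it was 5.84% and 14.9% (172 of 1376 and 364 of 1404 cells before thinning). The thinned share in stroma thus stood far above that background at both ages.

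Other somatic cells were non-members with at least 1000 genes and at most 2 UMIs of Dazl and Ddx4. Cells with at least 5% haemoglobin UMIs, or at least 3 UMIs of Ptprc, Tyrobp and Fcer1g, were left out of them but not of stroma. The supporting, endothelial and mural classes had the same limits. Against the other somatic cells of the same library (2129 at E18.5, 2264 at P1), 652 of 6804 genes with at least 20 CPM in the higher group were at least 2-fold higher in E18.5 stroma (9.58% of the genes compared) and 868 lower (12.8%). At P1 523 of 6575 genes were higher (7.95%) and 764 lower (11.6%). The median log2 ratio of stroma over other somatic cells was -0.15 at E18.5 and -0.17 at P1, and with the ratios centred on it 768 genes were higher and 700 lower at E18.5 and 617 and 603 at P1. Of the higher genes, 433 were shared, 66.4% of the E18.5 and 82.8% of the P1 set. Collagen-rich cells were not absent from the comparison group, since 9.39% of other somatic cells at E18.5 and 10.6% at P1 had at least 10 collagen UMIs. The classes also differed in median mitochondrial share. It was 8.09% and 8.42% of UMIs in other somatic cells and 8.71% and 9.88% in supporting cells, against 3.32% and 3.28% in stroma. With only cells of at most 10% mitochondrial UMIs, 640 genes were higher in stroma and 815 lower at E18.5, and 486 and 668 at P1.

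The genes that led this comparison at both ages were matrix genes, secreted growth regulators and a small number of cytoplasmic and nuclear genes. Mfap4 was 15.7-fold higher in stroma than in other somatic cells at E18.5 and 10.1-fold at P1. Sfrp1, a secreted inhibitor of Wnt signalling, was 14.6-fold and 9.59-fold higher. Tcf21, a basic helix-loop-helix transcription factor of gonadal mesenchyme (chr10:22817281-22820174, minus strand), was 17.9-fold and 12.0-fold higher. The growth regulators pleiotrophin (Ptn) and Dlk1, a non-canonical Notch ligand, belonged to the same group. Ptn was at 1758 CPM in E18.5 stroma and 1689 CPM in P1 stroma, 13.3-fold and 7.93-fold above other somatic cells. Dlk1 was at 1035 and 1429 CPM, 13.0-fold and 7.63-fold above. The proteoglycan biglycan (Bgn, 11.6-fold and 7.91-fold), lumican (Lum, 12.7-fold and 8.44-fold) and decorin (13.3-fold and 6.64-fold for Dcn) followed. Other leading genes were Itih5, a hyaluronan-linked inhibitor family member (14.1-fold and 8.52-fold), Mmp2, a gelatinase (12.52-fold and 8.37-fold), and Col6a3, a chain of the microfibrillar collagen VI (118 against 9.43 CPM at E18.5, and 8.89-fold at P1). Lsp1 (14.2-fold and 7.78-fold), the adhesion protein gene Clmp (14.1-fold and 11.9-fold) and the smooth muscle actin gene Acta2 (11.8-fold and 6.59-fold) also belonged to the 15. All 15 had the larger ratio at E18.5, and for 12 of them the level in other somatic cells was also higher at P1, as for Dcn, at 65.1 CPM at E18.5 and 227 CPM at P1.

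Between the ages, 115 of 6170 stroma genes with at least 20 CPM at the higher age were at least 2-fold higher at P1 (1.86% of the genes compared), 3 of them without a UMI at E18.5, and 308 were at least 2-fold higher at E18.5 (4.99%). The median log2 ratio of P1 over E18.5 was -0.06. Most genes thus lay close to the diagonal, and more were past 2-fold towards E18.5 than towards P1. The same contrast in supporting cells of the same 2 libraries was used to show where stroma differed. Of 5500 genes with at least 20 CPM in both classes, 155 were at least 2-fold higher at P1 and 273 at E18.5 in supporting cells. Of the 115 stroma genes higher at P1, 69 (60%) were also at least 2-fold higher in supporting cells and 22 were under 1.5-fold there. Of the 308 higher at E18.5, 165 (53.6%) were also at least 2-fold higher there and 55 were under 1.5-fold. More than every second gene of the stroma contrast was therefore shared by a cell class that the rule kept apart.

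**Figure D2:**
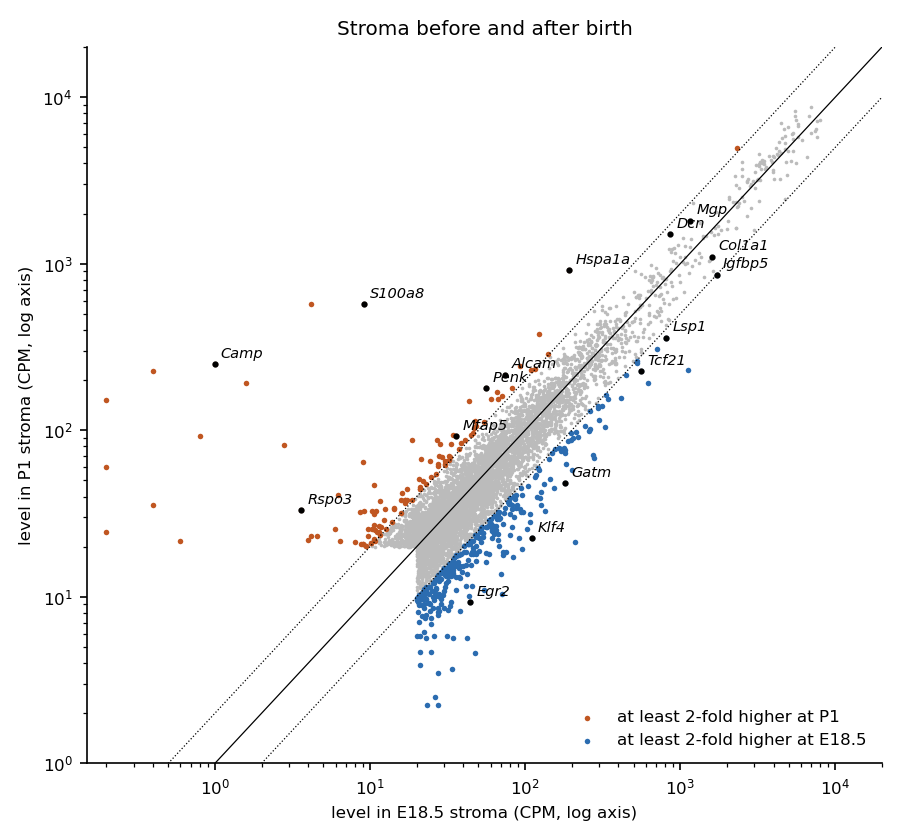
Level of each gene in P1 stroma against E18.5 stroma in CPM (both axes log), for genes with at least 20 CPM at the higher age, with the diagonal and 2-fold lines; orange and blue points are at least 2-fold higher at P1 or E18.5, black points are named genes, and 3 genes with no UMI at E18.5 are not drawn. Neutrophil genes such as Camp and S100a8 lie farthest above the diagonal, and Klf4 and Egr2 are among the genes well below it.

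The fibrillar collagens were among the genes of the rule and are given as levels only. Col1a1 was at 1609 CPM at E18.5 and 1102 CPM at P1, and Col3a1 at 2274 and 1648 CPM. Col1a2 (chr6:4504814-4541544, plus strand) was at 1408 and 1477 CPM. Of 14 other collagens with at least 20 CPM, 1 was at least 2-fold higher at P1 (1.86% over all genes) and none at E18.5 (4.99%), and their median log2 ratio was 0.13. That gene was Col14a1, a fibril-associated collagen, at 5.98 CPM (4.03 to 8.53) at E18.5 and 25.5 CPM (22.8 to 28.6) at P1, a ratio of 4.27 (2.93 to 6.44). The collagen VI chains moved little, with Col6a1 at 347 and 391 CPM and Col6a3 at 118 and 134 CPM.

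The proteoglycans and matrix glycoproteins had the higher level at P1 in 23 of 33 genes compared, against 2763 of all 6167 genes with UMIs at both ages, with a median log2 ratio of 0.43 against -0.06, and their summed level was 10837 CPM at E18.5 and 14195 CPM at P1. Past 2-fold were 3 genes at P1 and 1 at E18.5, where 1.86% and 4.99% of all genes were. Dcn was 1.74-fold (1.68 to 1.80) and Mgp 1.56-fold (1.51 to 1.61) higher at P1. Sparc, a collagen-binding matricellular protein, was at 2249 CPM at E18.5 and 3343 CPM at P1, a ratio of 1.49 (1.46 to 1.52). Lum (chr10:97565128-97572703, plus strand) was at 306 and 413 CPM, a ratio of 1.35 (1.27 to 1.43), and the elastic fibre gene Mfap2 was at 963 and 1299 CPM. Other members of the list had the lower level at P1. Bgn was at 796 and 752 CPM, Mfap4 at 982 and 858 CPM, elastin (Eln) at 441 and 339 CPM and the fibrillin gene Fbn2 at 125 and 101 CPM. Emilin1, an elastic fibre glycoprotein, was at 208 CPM (196 to 221) and 119 CPM (113 to 125), 1.75-fold (1.61 to 1.90) higher at E18.5.

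The genes of this list past 2-fold were low in E18.5 stroma. Osteoglycin (Ogn), a small proteoglycan, was at 47.0 CPM (41.2 to 53.4) and 103 CPM (97.7 to 109), a ratio of 2.20 (1.91 to 2.54). Mfap5, a microfibril protein that binds fibrillins, was at 36.1 CPM (31.0 to 41.7) and 92.6 CPM (87.2 to 98.2), a ratio of 2.57 (2.19 to 3.02). Smoc2, a calcium-binding matricellular protein, was at 8.56 CPM (6.20 to 11.54) and 32.5 CPM (29.3 to 35.9), a ratio of 3.79 (2.76 to 5.32). After thinning, Mfap5 was found in 5.26% (3.76 to 7.12) of E18.5 and 11.01% (9.53 to 12.6) of P1 stroma cells. It was in none of 50 and 42 endothelial cells, which allows shares of up to 7.11% and 8.41%, and in 0.656% and 1.64% of supporting cells. The E18.5 share of stroma thus lay within what the few endothelial cells allow. The reverse direction was held by tenascin C (Tnc), an adhesion-modulating glycoprotein, at 24.5 and 11.52 CPM, 2.13-fold (1.65 to 2.73) higher at E18.5.

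Supporting cells shared much of this pattern. The 22 proteoglycan and glycoprotein genes with at least 20 CPM in both classes had a median log2 ratio of 0.30 in stroma and 0.72 in supporting cells. Dcn was 3.99-fold higher at P1 in supporting cells and Lum 2.74-fold, from levels that were far lower (Lum 24.6 and 67.5 CPM). Of supporting cells, 9.16% at E18.5 and 12.0% at P1 had at least 10 collagen UMIs. How much of the level in supporting cells came from such cells or from free RNA of stroma was not tested. The share of stroma among cells with at least 1000 genes moved with it, from 21.9% to 32.6%.

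Matrix enzymes and inhibitors had a median log2 ratio of -0.08 over 26 genes, against -0.06 over all genes, with 1 past 2-fold at P1 and 2 at E18.5, near the 1.86% and 4.99% of all genes. Cathepsin K (Ctsk), a collagen-degrading protease, was at 3.98 CPM (2.43 to 6.15) at E18.5 and 22.0 CPM (19.4 to 24.8) at P1, a ratio of 5.51 (3.50 to 9.17). P4ha1 and P4ha2 encode catalytic subunits of the prolyl hydroxylase that stabilizes collagen, and both had the higher level at E18.5. P4ha1 was at 65.3 CPM (58.4 to 72.8) and 26.6 CPM (23.8 to 29.7), 2.45-fold (2.10 to 2.87) higher at E18.5. P4ha2 was at 23.9 and 11.52 CPM, 2.08-fold (1.61 to 2.67) higher at E18.5. The collagen chaperone Serpinh1 had the same direction, at 845 and 569 CPM, whereas the crosslinking enzyme lysyl oxidase (Lox) was at 59.6 and 104 CPM, 1.74-fold (1.54 to 1.98) higher at P1. The gelatinase Mmp2 (327 and 369 CPM) and its activator Mmp14 (337 and 327 CPM) differed little.

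Among 25 stromal and gonadal transcription factors, 19 had the lower level at P1, against 3404 of all 6167 genes with UMIs at both ages, with a median log2 ratio of -0.19. At least 2-fold higher were 3 at E18.5 (4.99% over all genes) and none at P1. Tcf21 was at 561 CPM (541 to 583) at E18.5 and 226 CPM (218 to 235) at P1, 2.48-fold (2.35 to 2.62) higher at E18.5. After thinning it was found in 57.8% (54.2 to 61.4) and 33.0% (30.7 to 35.4) of stroma cells. The other genes past 2-fold, Klf4 and Nr4a1, are immediate-early genes and are described with those. Nr2f2 (COUP-TFII), a nuclear receptor of interstitial mesenchyme, was at 289 and 237 CPM and Maf at 279 and 204 CPM. Both had the higher level at E18.5, by less than 1.5-fold. Gata4, a zinc finger factor of gonadal somatic cells, was at 87.4 and 53.3 CPM, 1.64-fold (1.45 to 1.86) higher at E18.5, and Sox4 was at 665 and 378 CPM. Osr1 had the other direction, at 49.8 and 64.8 CPM.

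The steroidogenic enzymes and Star were low in stroma at both ages, whereas the electron carriers that also serve other pathways were not. Star, the mitochondrial cholesterol carrier, was at 1.79 CPM (0.820 to 3.40) and 1.25 CPM (0.701 to 2.06), against 18.46 and 19.6 CPM in other somatic cells. Cyp11a1, the side-chain cleavage enzyme, had 0.199 and 0.167 CPM. Cyp17a1, the enzyme that makes androgen precursors in theca cells, had no UMI, which allows up to 0.598 CPM at E18.5 and 0.250 CPM at P1 (3 counts). Hsd3b1 was at 1.99 and 1.67 CPM in stroma and at 66.0 and 83.6 CPM in supporting cells. The 18 genes of the list summed to 148 and 145 CPM. Of these, Fdx1 (ferredoxin, 47.4 and 60.3 CPM) and Por (cytochrome P450 reductase, 32.1 and 30.0 CPM) reached 20 CPM, and neither was past 2-fold between the ages. The oestrogen receptor gene Esr1 was at 38.6 and 27.5 CPM.

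Of 8 genes compared in the insulin-like growth factor list, 1 was at least 2-fold higher at P1 (1.86% over all genes) and 1 at E18.5 (4.99%). The binding protein gene Igfbp5 was at 1721 CPM (1685 to 1758) at E18.5 and 859.9 CPM (843 to 877) at P1, 2.002-fold (1.95 to 2.06) higher at E18.5. This ratio lay at the limit, and without the members that carried blood genes (described below) Igfbp5 was under 2-fold apart. Supporting cells did not share the higher level at E18.5, at 230.5 and 234 CPM of Igfbp5, and no test of the difference was possible with 1 library per age. Igfbp6 had the opposite direction, at 37.2 and 77.1 CPM, a ratio of 2.07 (1.77 to 2.44), and Igfbp7 was at 347 and 546 CPM. Igf1 was even, at 147 and 145 CPM. Different binding proteins of 1 family thus had opposite directions in the same cells. Igf2 was low in the deposited counts at both ages, at 8.76 and 3.59 CPM, and is uncertain because the annotated gene Gm49394 overlaps it on the same strand.

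In the platelet-derived growth factor list all 4 genes compared had the higher level at P1, as did 2763 of all 6167 genes, and 1 was past 2-fold (1.86% over all genes). Pdgfrl, which encodes a receptor-like protein, was at 81.9 CPM (74.1 to 90.2) and 180.5 CPM (173 to 188), a ratio of 2.20 (1.98 to 2.46). The receptor gene Pdgfra was at 103 and 106 CPM and Pdgfrb at 50.2 and 70.9 CPM. Of 11 genes compared in the Wnt list of 24, Rspo3, a secreted enhancer of Wnt signalling, was the only gene past 2-fold (1.86% over all genes at P1), at 3.59 CPM (2.12 to 5.67) at E18.5 and 33.2 CPM (30.0 to 36.6) at P1, a ratio of 9.27 (5.79 to 15.8). After thinning it was found in 0.404% (0.0835 to 1.18) of E18.5 and 5.66% (4.59 to 6.89) of P1 stroma cells, against 0.365% and 1.29% of supporting cells and none of 50 and 42 endothelial cells (up to 7.11% and 8.41%). The ligand gene Wnt5a was at 123 and 69.1 CPM, 1.78-fold (1.60 to 1.98) higher at E18.5, and the Wnt inhibitor gene Sfrp1 at 637 and 844 CPM.

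In the TGF-beta and BMP list 15 of 18 genes had the lower level at P1, against 3404 of 6167 over all genes, with a median log2 ratio of -0.17, and 3 were at least 2-fold higher at E18.5 (4.99% over all genes). Id genes encode inhibitors of helix-loop-helix factors and are well-known targets of BMP signalling. Id1 was at 199 CPM (187 to 212) and 57.9 CPM (53.7 to 62.4), 3.44-fold (3.12 to 3.80) higher at E18.5. Id4 was at 126 and 35.6 CPM, 3.54-fold (3.13 to 4.01) higher, while Id2 (1632 and 905 CPM) and Id3 (1064 and 679 CPM) stayed under 2-fold. All of these Id genes had the same direction in supporting cells, where Id1 was 6.74-fold and Id2 2.97-fold higher at E18.5. The other gene past 2-fold was the activin subunit gene Inhba, at 35.1 and 15.4 CPM. In the hedgehog list none of the 6 genes compared was past 2-fold, near the 1.86% at P1 and 4.99% at E18.5 over all genes. The coreceptor gene Gas1 was at 536 and 532 CPM, the receptor and target gene Ptch1 at 23.7 and 22.4 CPM. The target gene Gli1, under the 20 CPM limit and so not compared between the ages, was at 11.2 and 7.18 CPM, 12.8-fold and 9.21-fold above other somatic cells.

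Of 9 contractile genes compared, 4 had the higher level at P1 and 5 at E18.5. Acta2 was at 545 CPM (525 to 566) and 645 CPM (630.4 to 659), a ratio of 1.18 (1.13 to 1.24), and Tagln at 220.5 and 311 CPM, a ratio of 1.41 (1.32 to 1.51). The myosin light chain gene Myl9, at 364 and 262 CPM, and the kinase gene Mylk, at 311 and 260.2 CPM, had the lower level at P1. The genes more restricted to differentiated smooth muscle stayed under 20 CPM and are not among the 9. Myh11, the smooth muscle myosin heavy chain, was at 17.7 and 8.43 CPM, Cnn1 at 6.17 and 4.92 CPM and Actg2 at 6.17 and 7.34 CPM. None of the 9 compared was past 2-fold, near the 1.86% at P1 and 4.99% at E18.5 over all genes. Their median log2 ratio was -0.14, against -0.06 over all genes. Of 23 cell division genes none was past 2-fold, also near the values over all genes, and their median log2 ratio was -0.15. After thinning Mki67 or Top2a was found in 14.96% (12.47 to 17.7) of E18.5 and 16.9% (15.1 to 18.8) of P1 stroma cells. The shares were 4.01% and 6.64% in supporting cells and 22% (11.53 to 36.0) and 28.6% (15.7 to 44.6) in endothelial cells, so that stroma stood above the first class and below the measured share of the second, whose intervals overlapped those of stroma.

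Immediate-early and heat shock genes respond within minutes to hours to growth factors, handling and enzymatic dissociation of tissue, and dissociation was longer at P1, so age and procedure cannot be told apart for them. Of 29 genes compared, 4 were at least 2-fold higher at P1 and 7 at E18.5, where 1.86% and 4.99% of all genes were, with a median log2 ratio of -0.53. Hspa1a (chr17:34969190-34972156, minus strand) and Hspa1b (chr17:34956436-34959238, minus strand) encode near-identical inducible HSP70 chaperones, and reads of one may be counted to the other. Hspa1a was at 192 CPM (180.3 to 205) at E18.5 and 912 CPM (895 to 929) at P1, a ratio of 4.75 (4.44 to 5.07), and was found after thinning in 18.7% and 52.0% of stroma cells. Hspa1b was at 18.7 CPM (15.1 to 22.9) and 87.1 CPM (81.9 to 92.5), a ratio of 4.65 (3.76 to 5.81). Hspb1, a small heat shock protein gene, was at 65.9 and 169 CPM, a ratio of 2.57 (2.29 to 2.90), and Socs3, a feedback inhibitor of cytokine signalling, at 43.6 and 150.3 CPM, a ratio of 3.45 (2.99 to 3.98). Heat shock genes did not move as a block: Dnajb1, an HSP40 co-chaperone, was at 103 and 96.7 CPM and Hsp90aa1 at 1357 and 1093 CPM in stroma, while supporting cells had the higher level of both at P1, by 3.21-fold and 1.71-fold.

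Transcription factor genes of the immediate-early class were among those with the higher level at E18.5. Klf4 was at 111 CPM (102 to 120.1) and 22.5 CPM (19.9 to 25.4), 4.91-fold (4.23 to 5.69) higher at E18.5. Srf, the serum response factor, which drives many of these genes, was at 54.0 CPM (47.7 to 60.8) and 11.02 CPM (9.22 to 13.1), 4.90-fold (3.96 to 6.08) higher. Maff (70.5 and 10.3 CPM, 6.81-fold), Egr2 (44.2 and 9.26 CPM, 4.77-fold), Atf3 (75.3 and 18.53 CPM, 4.06-fold), Nr4a1 (257 and 99.1 CPM, 2.59-fold) and Fosb (219.9 and 90.6 CPM, 2.43-fold) had the same direction. The class was not uniform, since Jun was at 845 and 1222 CPM, Fos at 772 and 837 CPM and Egr1 at 583 and 404 CPM. In supporting cells Klf4 was 3.23-fold, Srf 2.98-fold, Atf3 3.53-fold and Nr4a1 4.41-fold higher at E18.5.

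The sequences just upstream of 3 of these genes are shown because they carry the motif by which each class of genes is known, and these genes were picked after their values were seen. They are the 250 bases before the RefSeq transcription start on GRCm38.p6, 5′ to 3′ on the gene's strand, for Hspa1a (chr17:34972157-34972406, minus), Hspa1b (chr17:34959239-34959488, minus) and Srf (chr17:46556163-46556412, minus). Capitals mark the heat shock element, searched on both strands as GAANNTTC or TTCNNGAA, in the first 2 and the CArG box, bound by serum response factor, in the last.
Hspa1a: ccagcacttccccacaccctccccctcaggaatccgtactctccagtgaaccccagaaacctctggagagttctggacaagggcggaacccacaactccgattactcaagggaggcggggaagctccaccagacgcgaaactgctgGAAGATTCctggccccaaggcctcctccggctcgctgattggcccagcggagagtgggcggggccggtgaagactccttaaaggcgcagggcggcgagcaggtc
Hspa1b: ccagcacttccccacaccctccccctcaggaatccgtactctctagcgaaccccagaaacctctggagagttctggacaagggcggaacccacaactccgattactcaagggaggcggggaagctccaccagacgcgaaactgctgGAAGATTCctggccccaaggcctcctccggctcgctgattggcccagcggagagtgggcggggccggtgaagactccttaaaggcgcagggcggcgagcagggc
Srf: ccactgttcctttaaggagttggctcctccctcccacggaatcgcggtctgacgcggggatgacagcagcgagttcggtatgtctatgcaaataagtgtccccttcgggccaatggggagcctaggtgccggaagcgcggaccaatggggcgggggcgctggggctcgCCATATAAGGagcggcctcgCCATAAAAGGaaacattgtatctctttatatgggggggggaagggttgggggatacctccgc
The Hspa1a and Hspa1b windows were identical at 247 of 250 bases, and each held 1 match that began 104 bases before the start. The Srf window held 2 matches that began 82 and 62 bases before the start. Of all 32851 windows of this length, 12.8% held the heat shock element and 1.47% a CArG box. Of 7 heat shock genes looked up 5 had a listed window and 4 of those held the element, and of 12 genes looked up for the CArG box (Srf, Id1, Id4 and 9 immediate-early genes) 10 had one and 2 (Srf and Egr2) held it. A match is a description of these letters and not evidence of binding.

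Blood genes made up the largest ratios towards P1. Camp, a neutrophil granule protein gene, was at 0.996 CPM (0.323 to 2.32) and 250.2 CPM (241 to 259), S100a8 at 9.16 and 571 CPM and S100a9 at 4.18 and 569 CPM. BC100530, Stfa1, Gm5483, Ngp and Lcn2, other genes of the neutrophil lineage, were named by the same rule, and BC100530, Stfa1 and Gm5483 belong to a family of near copies among which reads could be split. At P1, 32 of the 1628 members carried blood genes (23 with at least 5% haemoglobin UMIs and 9 with at least 3 UMIs of Ptprc, Tyrobp and Fcer1g), and 5 of 745 did at E18.5. These 32 cells held 74.3% of the S100a8 UMIs and 72.8% of the Camp UMIs of P1 stroma. S100a8 was nevertheless found in 65.5% of P1 and 5.91% of E18.5 stroma cells, and supporting cells of the same libraries were at 8.39 and 174 CPM of S100a8. The 11 immune markers summed to 15.5 CPM at E18.5 and 765 CPM at P1 in stroma and to 15.8 and 236 CPM in supporting cells, with Ptprc at 0 and 1.75 CPM in stroma. Cells past these haemoglobin or immune limits were left out of the supporting class, whereas stroma kept them. Levels of blood genes in stroma and supporting cells are therefore not like for like. The 9 erythroid markers summed to 5382 and 9845 CPM, led by the haemoglobin gene Hbb-bs, which was at 2334 and 4965 CPM and was found in 91.5% and 100% of stroma cells. The blood-gene members held 81.3% of its UMIs at E18.5 and 65.1% at P1. Without them it was at 443 and 1799 CPM, a ratio of 4.06 where it was 2.13 with them, and the median log2 ratio of the erythroid markers was 2.02 in place of 0.88. Without the blood-gene members 112 genes were at least 2-fold higher at P1 and 300 at E18.5, so these few cells did not set the counts.

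Penk, Ifi27l2a and Zfp787 were also among the 15 genes with the largest ratio towards P1. Penk, the enkephalin precursor, was at 56.0 CPM (49.6 to 62.9) and 179.9 CPM (172 to 188), a ratio of 3.21 (2.84 to 3.65), and 20.2-fold and 8.51-fold above other somatic cells. Ifi27l2a, an interferon-inducible gene, was at 8.96 and 64.3 CPM, a ratio of 7.17 (5.31 to 9.91), and Zfp787 at 26.9 and 87.6 CPM, a ratio of 3.26 (2.72 to 3.93). Penk and Zfp787 had the same direction in supporting cells, 8.93-fold and 3.91-fold, and Ifi27l2a 2.26-fold. The genes named towards E18.5 outside the immediate-early class included the HSP40 gene Dnajb4 at 275 and 70.9 CPM (3.89-fold, 3.57 to 4.24), the unnamed locus AC160336.1 at 209.9 and 21.3 CPM (9.86-fold, 8.59 to 11.4), the growth factor signalling inhibitor gene Spry2 at 70.3 and 13.8 CPM (5.11-fold, 4.23 to 6.18), Wsb1 at 278 and 68.4 CPM (4.07-fold, 3.73 to 4.45), Tob2 at 95.4 and 19.3 CPM and Amotl2 at 83.1 and 17.4 CPM.

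**Figure D3:**
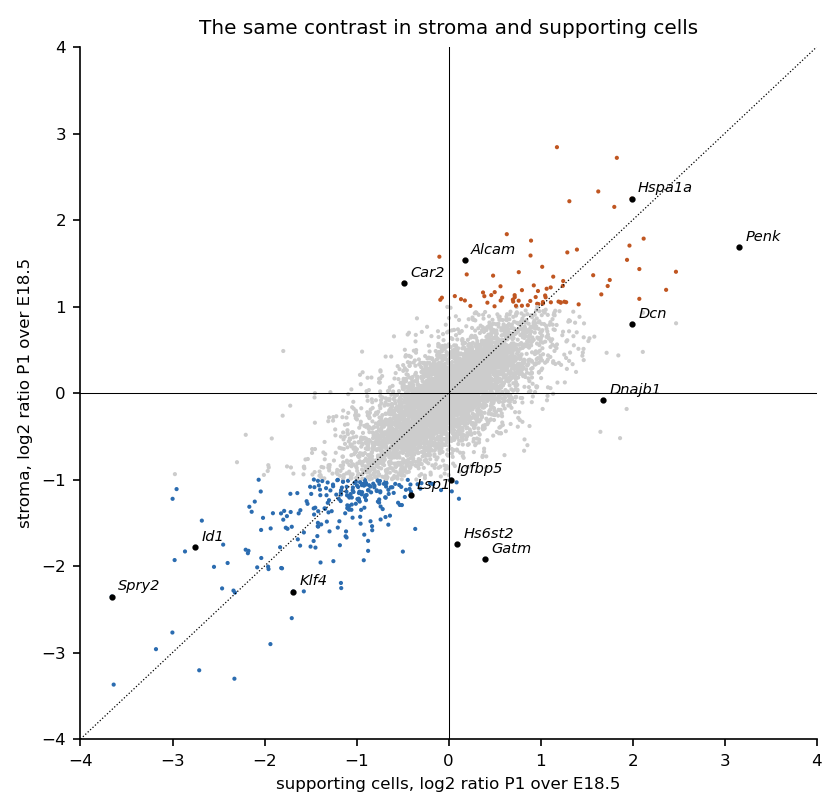
Log2 ratio of P1 over E18.5 in stroma (vertical axis) against the same ratio in supporting cells (horizontal axis), for 5500 genes with at least 20 CPM in both classes, 11 of which lie outside the axes; orange and blue points are at least 2-fold higher in stroma at P1 or E18.5, and black points are named. Spry2 and Klf4 lie below 0 on both axes, whereas Alcam and Gatm lie near the vertical axis, past 2-fold in stroma and under 1.5-fold in supporting cells.

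Without the blood-gene members, 5 genes were at least 2-fold higher at P1 and 15 at E18.5 in stroma, with at least 50 CPM at the higher age, while differing by less than 1.5-fold in supporting cells. This set was chosen after the values were seen, and with 1 library per age the difference between the classes has no test. Alcam, a cell adhesion molecule, was at 74.5 CPM (67.1 to 82.4) at E18.5 and 216 CPM (207 to 224) at P1 in stroma, a ratio of 2.90 (2.60 to 3.24), and at 77.2 and 87.2 CPM in supporting cells. Gatm, an enzyme of creatine synthesis, had the other direction, at 181 CPM (169.9 to 194) and 47.9 CPM (44.1 to 52.0) in stroma, 3.79-fold (3.41 to 4.21) higher at E18.5, and at 475 and 625 CPM in supporting cells. Hs6st2, a heparan sulphate sulphotransferase gene, was at 79.5 and 23.6 CPM in stroma and 54.0 and 57.7 CPM in supporting cells. Lsp1 was at 816 CPM (791 to 841) and 359 CPM (349 to 370.3), 2.27-fold (2.17 to 2.37) higher at E18.5, against 64.0 and 48.1 CPM in supporting cells. Dnm3os, the host of a microRNA cluster of mesenchyme, was at 82.5 and 33.8 CPM and the RNA-binding protein gene Rbms3 at 169.9 and 77.0 CPM. In supporting cells Dnm3os was at 6.22 and 4.32 CPM and Rbms3 at 36.4 and 27.5 CPM, the same direction at a ratio under 1.5-fold.

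Markers of other cell types were low in stroma, with exceptions that are given here. The 12 pregranulosa markers summed to 365 CPM at E18.5 and 306 CPM at P1 in stroma, against 3461 and 2734 CPM in supporting cells, and Wnt4 was their most abundant gene at 156 and 117 CPM, while Lgr5 was at 2.99 and 1.502 CPM and Irx5 at 0 and 0.0835 CPM. Foxl2, the granulosa lineage transcription factor, was at 55.4 CPM (49.1 to 62.3) and 80.6 CPM (75.6 to 85.9), and after thinning in 9.70% (7.67 to 12.1) and 13.2% (11.6 to 14.97) of stroma cells, against 0% and 2.38% of endothelial and 20.6% and 37.6% of supporting cells. The endothelial intervals, from 50 and 42 cells, reached 7.11% and 12.6%. The thinned share of stroma stood above this background at E18.5 and overlapped it at P1, below supporting cells at both ages. Before thinning, 25.5% and 32.8% of stroma cells had a Foxl2 UMI, against 6% and 6.98% of endothelial and 46.1% and 71.4% of supporting cells. Over the P1 clusters described below, Foxl2 ranged from 0 to 132 CPM. How much of the stroma level was free RNA was not tested. Without members with a UMI of Foxl2 or of 5 other class genes, 348 genes were at least 2-fold higher at E18.5 and 146 at P1. The 9 endothelial markers summed to 239 and 186 CPM, of which Ramp2, a receptor-modifying protein not confined to vessels, made up 194 and 153 CPM, while Cldn5 was at 1.39 and 0.996 CPM. The 9 mural markers summed to 107 and 103 CPM, led by Abcc9 at E18.5 (22.5 CPM) and Kcnj8 at P1 (38.0 CPM), with Vtn at 0 and 0.417 CPM. The 10 epithelial markers summed to 177 and 122 CPM, nearly all from Lgals7, with Krt19 at 3.78 and 2.67 CPM. Germ cell markers summed to 40.6 and 43.5 CPM, mesonephric tubule markers to 2.19 and 3.26 CPM and adipose and capsule markers to 1.59 and 1.42 CPM, and the 4 Y-linked genes had no UMI. Of the glial factors, Sox10 was at 0.199 and 0.0835 CPM and Foxd3 at 0 at both ages.

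The same rule applied to the libraries on either side found 2076 cells at E16.5 (25.1% of cells with at least 1000 genes, after 40 min of dissociation) and 2217 cells at P5 (41.8%, after 80 min). Across E16.5, E18.5, P1 and P5 the level of Dcn was 965, 864, 1504 and 2421 CPM, and that of Mfap5 4.89, 36.1, 92.6 and 189 CPM. Igfbp7 was at 119, 347, 546 and 1013 CPM. These had their highest level in the latest library. The reverse order was seen for Igfbp5, at 3627, 1721, 859.9 and 760.4 CPM, for Wnt5a, at 292, 123, 69.1 and 39.1 CPM, and for Maf, at 511, 279, 204 and 159.5 CPM. Tcf21 followed neither order, at 107, 561, 226 and 138 CPM, with its highest level at E18.5. Alcam, named above for its contrast around birth, was at 264, 74.5, 216 and 66.7 CPM and alternated between the libraries, and Lsp1 was at 556, 816, 359 and 873 CPM. The E18.5 to P1 contrast of these genes is therefore not part of a steady course over the 4 libraries. Hspa1a was at 48.7, 192, 912 and 649.8 CPM, with 40, 60, 80 and 80 min of dissociation.

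Contractile genes set the P5 library apart. Acta2 was at 285, 545, 645 and 1159 CPM and Tagln at 139, 220.5, 311 and 505 CPM. Actg2, the smooth muscle gamma actin gene, was at 1.66, 6.17, 7.34 and 135 CPM. Myh11 was at 39.3, 17.7, 8.43 and 56.2 CPM and Cnn1 at 2.40, 6.17, 4.92 and 49.9 CPM. Around birth the smooth muscle genes were thus at low levels that P5 stroma exceeded. Ptch1 was at 24.98, 23.7, 22.4 and 70.7 CPM, highest at P5, while Gli1 was at 14.2, 11.2, 7.18 and 15.3 CPM. Star stayed under 4 CPM and Cyp17a1 under 1 CPM in all 4.

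**Figure D4:**
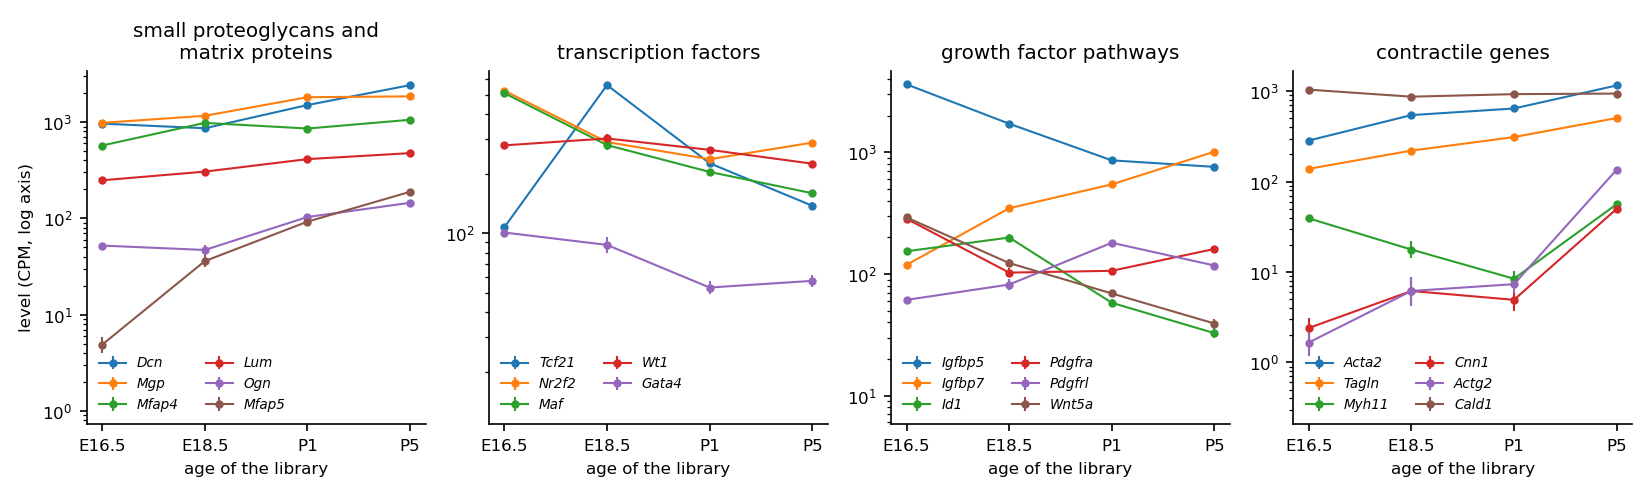
Levels in CPM (log axis, 95% exact Poisson intervals, 1 library per age) of matrix, transcription factor, growth factor and contractile genes in cells chosen by the same rule at E16.5, E18.5, P1 and P5; lines join libraries and are not a fit. Mfap5 and Acta2 were highest at P5, Igfbp5 and Wnt5a highest at E16.5, Tcf21 highest at E18.5, and Actg2 stood at 135 CPM at P5 against 7.34 at P1.

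The stroma cells of each library were then clustered on variable genes, without the blood-gene members and without cell division, immediate-early, haemoglobin and rule genes among the variable genes. Every gene of these cells counts as used, so the clusters are described by their leading genes and get no cell type name. The word dividing marks a cluster led by division genes. When all members of both libraries were clustered together, 78.5% of E18.5 cells and 1 P1 cell formed 1 of 8 clusters, and 3 clusters with 33.8%, 24.51% and 14.496% of P1 cells held 6, 0 and 0 cells of E18.5, so the clusters divided largely by library. Only a dividing cluster drew like shares from both, 16.8% (14.2 to 19.7) of E18.5 and 16.03% (14.3 to 17.9) of P1 cells. Clustered apart, the 740 E18.5 cells gave 4 clusters and the 1596 P1 cells 5.

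At E18.5, the first cluster (209 cells, 28.2%) was led by Nr4a1 (429 CPM) and Id4 (219 CPM) and had Tcf21 at 824 CPM. The next (205 cells, 27.7%) was led by Lum (629 CPM), Cxcl12 (175 CPM) and Tagln (404 CPM), with Mfap5 at 88.9 CPM and Agtr2 at 98.9 CPM. The third (198 cells, 26.8%) was led by Kctd14 (282 CPM) and Gatm (287 CPM), with Foxl2 at 88.1 CPM, and Acta2 was at 245 CPM there against 761 CPM in the first. The last (128 cells, 17.3%) was led by division genes such as Top2a (688 CPM) and Pclaf (1160 CPM).

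At P1, the largest cluster (656 cells, 41.1%) was led by Akr1cl (251 CPM), Lmcd1 (142 CPM) and Foxl2 (132 CPM), with Acta2 at 851 CPM and Wnt4 at 171 CPM. The next (361 cells, 22.6%) was led by 2810474O19Rik (431 CPM) and Gsto1 (186 CPM), which were at 186 and 86.7 CPM in the other P1 clusters. The third (225 cells, 14.1%) was the dividing cluster, with Top2a at 889 CPM, and it had Ogn at 10.9 CPM where the other P1 clusters had 114 to 169.8 CPM. The dividing E18.5 cluster had Ogn at 8.92 CPM where the others had 41.2 to 66.5 CPM. Ogn was thus low in the dividing cluster of each library.

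The last P1 clusters were the ones with the most marked leading genes outside division. A set of 219 cells (13.7%) was led by Egfl6 (191 CPM), Rspo3 (151 CPM), Pdlim3 (224 CPM) and Pdgfrl (439.7 CPM), with Lum at 880.0 CPM and H19 at 1990 CPM. These cells had Rspo3 at 151 CPM where the first 3 P1 clusters had 8.17 to 21.8 CPM and the fifth 71.3 CPM. A set of 135 cells (8.46%) was led by the chemokine gene Cxcl12 (996.8 CPM), the angiotensin receptor gene Agtr2 (589 CPM) and Smoc2 (274 CPM), with Dcn at 4624 CPM, Lum at 1352 CPM and the prolactin receptor gene Prlr at 159 CPM. It had no Foxl2 UMI and low Acta2 (224 CPM). Of its cells, 131 lay in 1 cluster of the joint analysis, which held 9.21% of P1 and 3.36% of E18.5 stroma cells. At E18.5 the highest Cxcl12, Agtr2, Lum and Smoc2 levels were together in the cluster led by Lum, at lower values. Over the clusters of both libraries Pdgfra ranged from 80.7 to 121.9 CPM and Wt1 from 241 to 331 CPM.

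**Figure D5:**
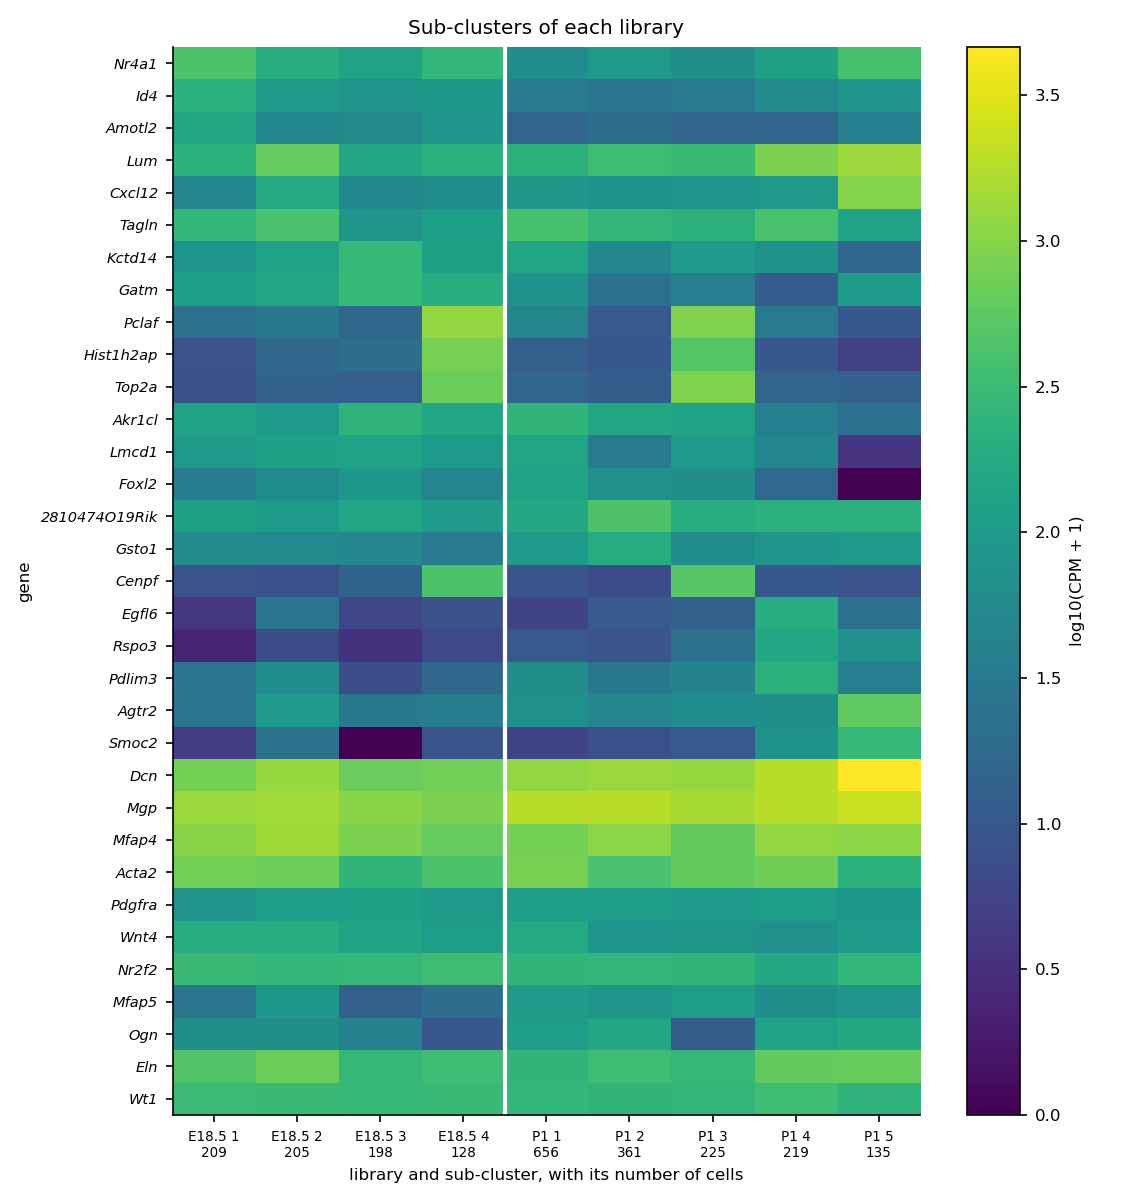
Level, as log10 of CPM + 1, of leading and marker genes (rows) in the clusters of E18.5 stroma (4 columns) and P1 stroma (5 columns), each library clustered alone, with the number of cells under each column. Cxcl12, Agtr2 and Smoc2 were highest in the fifth P1 cluster, where Foxl2 had no UMI, Egfl6, Rspo3 and Pdlim3 in the fourth, and Top2a, Pclaf and Cenpf in the dividing cluster of each library.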

How the data were processed

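Single-cell RNA was measured in mouse ovary libraries, 1 per age. The deposited counts are UMIs per gene and cell, whole numbers that were not normalized, which the authors made with Cell Ranger 3.1.0 (10x Chromium, 3′ chemistry v2) on mm10 with 31053 genes. The called cells were used as deposited and no annotation of cells was used. All 4 libraries shown were counted in the same way, and library totals were 32566406 UMIs at E18.5 and 52076402 at P1. The number of animals or ovaries behind each library was not used here.

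UMIs were summed over member cells and scaled to CPM in Python 3.11.15 (numpy 2.4.6, scipy 1.17.1, pandas 2.3.3). Genes with at least 20 CPM in the higher group were compared, and counted past a ratio of 2. The members and the gene lists (32 lists, 460 genes, 1 of them not in the files) were chosen with earlier results of these data known. Named were the 15 genes with the largest ratio in each direction among those with at least 50 CPM, the 15 leading over other somatic cells with 10 CPM added, in each list the 4 most abundant genes and the 2 with the largest ratio in each direction, and the 10 leading genes of each cluster with 50 CPM added. Other genes were named after their values were seen. Some genes that these rules select are not reported here. Scrublet (scanpy 1.11.5) called 79 (2.05%) and 164 (2.72%) of the cells tested as doublets. Clusters came from the Leiden method (igraph 0.11.9) on 10 principal components (scikit-learn 1.9.0), 30 neighbours and a resolution of 0.6. Positions and promoters are those of RefSeq on GRCm38. The scripts were tested on simulated data. Alternatives varied the limits of the rule, doublets, mitochondrial share, depth, averaging, scaling, level filter and clustering.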

Additional observations from a re-analysis of the deposited data

Results flagged for a closer look

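In 3 of the genes at least 2-fold apart between the ages in stroma, the supporting cells of the same libraries had the opposite direction with a counting interval that did not reach 1, at a level of at least 50 CPM in both classes. Genes below that level or with an interval that reached 1, such as Hs6st2, were not counted. The difference between the classes was not tested, since each age had 1 library. Gatm had a ratio of P1 over E18.5 of 0.264 (181 and 47.9 CPM) in stroma and of 1.31 (1.27 to 1.36) in supporting cells, at 475 and 625 CPM. Ivns1abp, which encodes an actin-binding kelch protein, had a ratio of 0.429 (68.9 and 29.5 CPM) in stroma and of 1.08 (1.01 to 1.15) in supporting cells, at 155 and 168 CPM. Car2, the carbonic anhydrase gene also abundant in red cells, had a ratio of 2.42 (47.2 and 114 CPM) in stroma and of 0.714 in supporting cells, at 163 and 117 CPM. Of the Car2 UMIs of P1 stroma, 47.2% lay in the 32 members with blood genes, and without those members the ratio was 1.95.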

How the results depend on the processing

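With 1 library per age no replicate could be left out, and every ratio carries library, litter and dissociation time along with age. No paired analysis was possible because each age had 1 library and no result came from a test. No gene, list or count changed direction past 2-fold under the alternatives run. The level filter moved the counts most. At a minimum of 5 CPM, 687 genes were at least 2-fold higher at E18.5 and 302 at P1, and at 100 CPM 59 and 25, against 308 and 115. Over other somatic cells, the same limits gave 1162 and 202 genes at E18.5 against 652, and 886 and 176 at P1 against 523. Totals without mitochondrial, ribosomal, haemoglobin and rule genes gave 202 genes higher at P1. Under the other alternatives these counts lay between 257 and 348 at E18.5 and between 105 and 147 at P1. Leaving out members with a UMI of Foxl2, Krt19, Cldn5, Kcnj8, Ptprc or Pax8 left 477 and 836 of the 745 and 1628 members, and moved 53 ratios of named genes and 5 list medians, where 111 and 18 did not move. Clustering each library alone and without the blood-gene members, 2 changes at once, gave 4 and 5 clusters in place of 8, and resolutions of 0.4 and 0.8 gave 6 and 10. Counting each pair of a named gene and an alternative, 208 ratios moved beyond counting error and 1791 did not, and of the pairs of a list median and an alternative 33 moved and 291 did not. Leaving out members with blood genes and clustering each library alone were chosen after seeing the data. Depth limits low genes most: with 3 counts giving 0.598 CPM at E18.5 and 0.250 CPM at P1, differences of Cyp17a1 were not detectable.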

Other observations

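For lists not described above, counts past 2-fold are to be read beside the shares over all genes, 1.86% at P1 and 4.99% at E18.5. In lists this short a count of 0 lies near those shares and is no result about the members. None of 15 imprinted growth genes was past 2-fold between the ages, with a median log2 ratio of -0.01. The maternally expressed non-coding RNA Meg3 was at 3064 CPM at E18.5 and 3936 CPM at P1 in stroma, H19 at 1071 and 991 CPM, and Gnas, the stimulatory G protein subunit gene, at 1081 and 1284 CPM. Zdbf2 was 1.57-fold (1.32 to 1.85) higher at E18.5, at 46.8 and 29.9 CPM. None of 4 CDK inhibitors was past 2-fold, with a median of -0.03. Cdkn1c, which encodes the imprinted inhibitor p57, was at 427 and 424 CPM in stroma and at 867 and 407 CPM in supporting cells, and Cdkn1b at 28.9 and 27.0 CPM in stroma and 185 and 193 CPM in supporting cells. The 2 classes thus differed in Cdkn1b at both ages and in Cdkn1c at E18.5, and these differences have no test.

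Of 10 guidance cues and receptors compared none was past 2-fold, near the 1.86% at P1 and 4.99% at E18.5 over all genes. Their median was 0.11. Slit2, a repulsive ligand of Robo receptors, was at 139 and 126 CPM, 5.76-fold and 4.41-fold above other somatic cells, and Sema3d at 36.6 and 45.7 CPM, 9.79-fold and 6.52-fold above. Epha7 was 1.65-fold (1.41 to 1.93) higher at E18.5 and Nrp2 1.75-fold (1.40 to 2.21) higher at P1. Of the 15 genes of the retinoid list 5 were compared. Crabp1, a retinoic acid binding protein gene, was the 1 gene past 2-fold (4.99% over all genes at E18.5). It was at 47.8 CPM (41.9 to 54.2) and 23.5 CPM (20.9 to 26.5), 2.03-fold (1.70 to 2.42) higher at E18.5. The medians of this list (0.09), of 5 chemokine and complement genes (0.19) and of 3 steroid hormone receptors (0.12) lay above the -0.06 of all genes, with none past 2-fold in the last 2. Cxcl12 was at 80.7 and 141 CPM, a ratio of 1.75 (1.57 to 1.95) and the complement inhibitor gene Serping1 was at 86.4 and 135 CPM. The glucocorticoid receptor gene Nr3c1 was at 69.7 and 79.0 CPM.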
